A study of Homo sapiens with 6 samples.

Results

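Of the genes of glycolysis and of the response to low oxygen, 40 were chosen by name, and 39 of them have a row among the 23384 features of the count table. SLC2A3 was not analysed here. The members were listed by symbol for their known roles, with no threshold on a measured value, though earlier results of these data were known. They were read in 6 RNA-seq libraries of CAL27, a long-established line grown from a squamous carcinoma of the tongue, 3 from cells given an empty vector (control, genotype given as WT) and 3 from cells given a plasmid that carries TNFAIP2 (genotype given as TNFAIP2 overexpression). All were grown in DMEM with 10% serum under 5% CO2 at 37 °C; an oxygen level and a low-oxygen treatment are not given in the labels. Nothing in the labels tells whether libraries of one group were grown as separate cultures, or whether the transfected cells were a clone or a pool. A p-value here therefore reflects only the spread between libraries, which may be technical. The series title asks about TNFAIP2 and NF-κB, and the comparison here asks whether this metabolic and hypoxic gene programme differed between the groups.

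Glycolysis breaks glucose down to pyruvate in the cytosol. Glucose enters through SLC2A family transporters and is trapped by hexokinase, phosphofructokinase commits it to breakdown, and the later enzymes from GAPDH to pyruvate kinase yield ATP and NADH. Lactate dehydrogenase turns pyruvate into lactate, which leaves through SLC16A family carriers. In low oxygen the prolyl hydroxylases EGLN1 and EGLN3 no longer mark HIF1A for destruction, and the HIF complex then switches on many of these genes through short DNA elements with the core ACGTG or GCGTG. Many squamous carcinomas keep this programme active.

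The reading of these genes depends on which strand a count lies on, so the sequence of one locus is shown first. The lncRNA ENSG00000269968 lies on the minus strand of chromosome 12 at 6537794 to 6538370 (GRCh38), wholly inside exons of GAPDH, with 219 of its 422 bases in coding exons and 203 in untranslated ones. The 60 bases below, at chr12:6537926-6537985 in coding sequence, are given from GENCODE release 29 as each strand's transcript reads 5′ to 3′. Each is the reverse complement of the other over all 60 bases, so none is in capitals, and strand alone decides to which name a read from this stretch is counted. The strand setting of the counting is unknown here. Every own-name value below is what the table lists under that name, and may be a count of reads from the other strand.
ENSG00000269968: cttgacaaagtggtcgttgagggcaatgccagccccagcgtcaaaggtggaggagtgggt
GAPDH mRNA: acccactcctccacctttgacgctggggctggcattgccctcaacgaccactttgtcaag

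The HIF core was then looked up in the members' promoters, the 250 bases before each start listed by RefSeq (GRCh38.p14), for ACGTG and GCGTG on both strands. Starts were listed for 36 members, with 64 starts in all. ACGTG was in 24 of these starts (37.5%) and in 18.5% of all 35116 promoters. GCGTG was in 23 (35.9%) and in 32.2% of all promoters. Starts of 1 gene can overlap, a match on both strands of CACGTG counts as 1 promoter, and base composition was not matched. At least 1 of the cores was in 39 of the 64 starts (60.9%) and in 43.2% of all promoters. By gene it was found for 30 of the 36, but genes with several starts have more chances of a match. The share by gene over all genes was not computed. Promoters of TPI1, DDIT4 and HK2 are shown because they hold matches of both kinds and cover at most 5 annotated exonic bases. For TPI1 and HK2, another listed start lies upstream of the one shown. Its promoter holds 0 matches at TPI1 (chr12:6867281-6867530) and 3 at HK2 (chr2:74833877-74834126). Capitals mark every match. A match is a stretch of letters and says nothing of binding in these cells.
TPI1, chr12:6867855-6868104, plus strand: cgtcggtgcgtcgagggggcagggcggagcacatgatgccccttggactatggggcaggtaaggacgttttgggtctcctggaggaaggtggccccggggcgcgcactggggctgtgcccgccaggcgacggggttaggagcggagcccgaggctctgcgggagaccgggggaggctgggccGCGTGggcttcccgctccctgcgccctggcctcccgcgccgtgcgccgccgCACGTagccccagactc
DDIT4, chr10:72273674-72273923, plus strand: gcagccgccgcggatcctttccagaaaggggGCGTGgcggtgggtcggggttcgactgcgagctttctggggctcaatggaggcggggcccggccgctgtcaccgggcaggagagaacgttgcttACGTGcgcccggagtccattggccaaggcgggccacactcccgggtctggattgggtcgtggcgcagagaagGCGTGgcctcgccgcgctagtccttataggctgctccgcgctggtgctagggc
HK2, chr2:74834920-74835169, plus strand: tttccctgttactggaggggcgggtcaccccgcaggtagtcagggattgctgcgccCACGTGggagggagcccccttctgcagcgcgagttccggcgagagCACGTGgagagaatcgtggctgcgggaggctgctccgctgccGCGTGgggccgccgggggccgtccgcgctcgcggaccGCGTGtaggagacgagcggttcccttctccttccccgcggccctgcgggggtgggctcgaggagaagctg
The promoter shown for TPI1 holds 2 matches and that for DDIT4 3. That shown for HK2 has 6, because its pair of CACGTG stretches matches on both strands.

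Total counts ran from 3092261 to 3527161 per library. Counts under the name TNFAIP2 were 194, 112 and 162 across the controls (replicates 1 to 3) against 194, 152 and 142 across the TNFAIP2-labelled libraries (51.3 ± 17.3 CPM in controls against 44.3 ± 6.46 CPM in TNFAIP2-labelled libraries, SD, n = 3, log2 fold change of -0.21, SE 0.28, adjusted p by edgeR = 0.881). Own-name counts of the targeted gene were thus not higher in the libraries labelled for its overexpression. Like those of the members, they may be counts of reads from the other strand. Whether the plasmid carries the counted sequence is not in the labels, and the groups are named here as labelled. All 19 squamous keratinocyte markers looked up had counts in every library, with a summed level of 1748 to 2326 CPM in controls and 2049 to 2502 CPM in TNFAIP2-labelled libraries. The 4 fibroblast markers with a row summed to at most 8.52 CPM, the 2 endothelial ones to at most 11.9 CPM and the 4 leukocyte ones to at most 9.32 CPM. Of 8 fibroblast, 6 endothelial and 6 leukocyte markers looked up, the rest had no row, so these sums cover far fewer genes than the keratinocyte sum. TIE1 had counts in 1 library and CD14 in 2, but CDH5, CD68 and CSF1R had enough counts to be tested. CDH5 had 15, 25 and 32 counts in controls against 18, 41 and 34. CD68 averaged 4.75 CPM in controls against 3.80. CSF1R averaged 1.13 CPM in controls against 3.34, without overlap between groups (adjusted p by edgeR = 0.83). Of the 3 melanocyte markers, PMEL alone was high, at 188 CPM in controls, and its exons lie opposite those of CDK2. CPM are counts per 1000000 of a library's counts in the features kept for testing, scaled by TMM.

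No member passed the test between the groups. Of the 39 members, 35 had enough counts to be tested with edgeR's quasi-likelihood test, and 0 passed an adjusted p of 0.05 (Benjamini-Hochberg over all features), as did 0% of all 11851 features tested. An unadjusted p under 0.05 was reached by 2 members, both higher, against 1.83% of all features, and by 0 lower ones, against 3.06% (4.89% in either direction). Among the 9057 protein-coding features tested, 205 were higher and 119 lower at that threshold. DESeq2 and limma-voom also called 0 members. The lowest edgeR adjusted p among the members was 0.83. A positive log2 fold change was found for 27 of 35 members (median 0.27), beside 51.9% of all features (median 0.024) and 62% of protein-coding ones (median 0.13). The 3 libraries of one group lay wholly above those of the other for 3 members higher in the TNFAIP2-labelled libraries (5.54% of all features) and for 1 lower (4.92%). Among the 9057 protein-coding features, 615 lay wholly higher and 301 wholly lower.

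The members' share of counts differed more within the controls than between the group means. Together they made up 0.325, 0.335 and 0.599% of all counts in controls 1 to 3 against 0.657, 0.465 and 0.577% in TNFAIP2-labelled replicates 1 to 3. Control replicate 3 was thus close to the TNFAIP2-labelled libraries and far from the other controls. It was the highest of the controls for 23 of the 35 tested members, against 39.3% of all features and 48.2% of protein-coding ones. A second quantity, the own-strand ratio, had nearly the same library order. The own-strand ratio is the summed count of protein-coding genes under their own names divided by that of the features lying inside their exons on the other strand. Over 364 such features of genes outside the member list it was 0.118, 0.11 and 0.161 in controls 1 to 3 against 0.186, 0.139 and 0.174 in TNFAIP2-labelled replicates 1 to 3. It averaged 0.13 ± 0.0274 in controls against 0.167 ± 0.0242 (SD, n = 3), which missed an exact two-sided permutation test (p = 0.2, with 0.1 the smallest this design allows).

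Across the 6 libraries, the members' share followed the own-strand ratio of the other genes on log2 scales. Pearson's r was 0.975 (exact permutation p = 0.0111, adjusted 0.0222) and Spearman's rho 0.886 (exact permutation p = 0.0333, adjusted 0.0333), with both groups pooled and the adjustment over these 2 statistics. Without control replicates 1 and 2, the libraries farthest from the median ratio, r was 0.931 over 4 libraries, too few for a test. Each library's share and ratio come from the same counts. The summed keratinocyte markers were also lowest in control replicates 1 and 2, and the part of the ratio in either was not tested. A positive correlation of the own-name level with the ratio was found for 26 of the tested members, against 53.2% of all features, 65.6% of protein-coding ones and 16 of 19 keratinocyte markers, so it was not particular to the members.

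**Figure D1:**
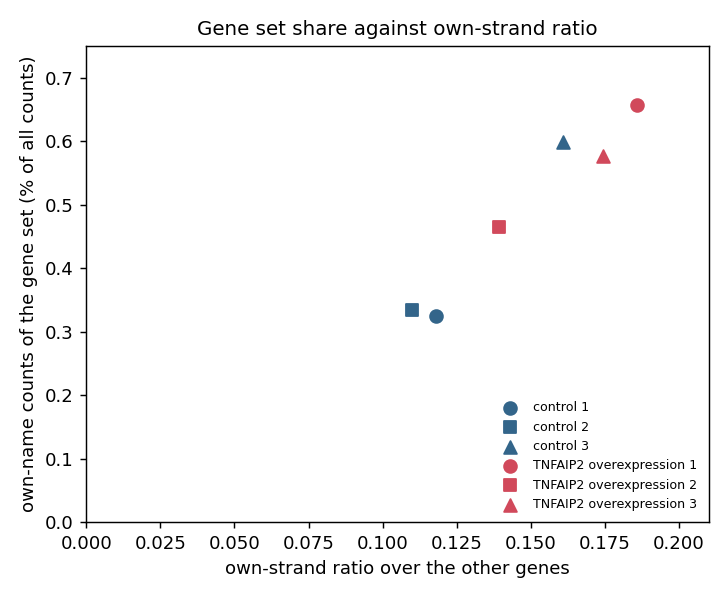
The plot has the own-strand ratio over genes outside the list on the x axis and the list's own-name counts as a percentage of all counts on the y axis, with 1 point per library. Control replicates 1 and 2 lie lowest at 0.325 and 0.335%, and control replicate 3 at 0.599% lies among the TNFAIP2-labelled libraries.

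With the log2 own-strand ratio of all genes as a covariate in the same edgeR fit, the members' median log2 fold change was 0.0035 in place of 0.27, and 18 of 35 values were positive (48% of all features). No member passed the adjusted threshold there and 0 reached an unadjusted p under 0.05, against 2.49% of all features. Without control replicate 3 6 members passed, all higher (4.13% of all features did so). They were GAPDH, PGK1, ENO1, LDHA, NDRG1 and DDIT4, with log2 fold changes of 0.61, 0.82, 0.56, 1.28, 1.30 and 0.85 (edgeR adjusted p = 0.0139, 0.0111, 0.0301, 0.00113, 0.0391 and 0.0383). In the same fit 489 of the 9057 protein-coding features passed as higher, and so did 3 of the 19 keratinocyte markers. With control replicate 3 left out, the lowest own-strand ratios are all in the control group, so that ratio and the group cannot be told apart.

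**Figure D2:**
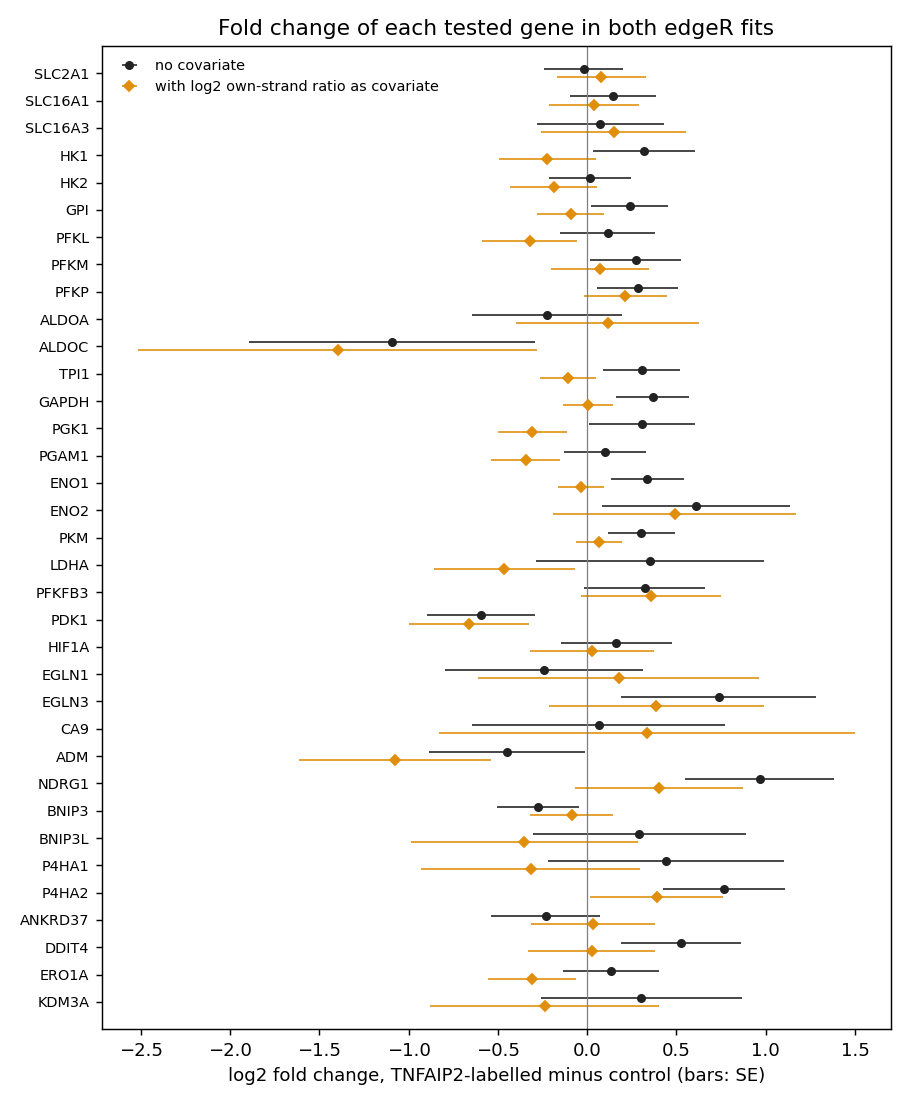
The plot gives the log2 fold change of each tested gene, TNFAIP2-labelled minus control, with bars of 1 SE; circles are the fit without a covariate and diamonds the fit with the log2 own-strand ratio. LDHA moves from 0.35 to -0.46 and GAPDH from 0.37 to 0.0035, while PDK1 stays low at -0.59 and -0.66.

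No glucose or lactate transporter passed the test. SLC2A1, the main glucose transporter of proliferating epithelial cells (ENSG00000117394, chromosome 1, 42925353 to 42958893, minus strand), had 103, 106 and 84.9 CPM across the controls (replicates 1 to 3) against 86, 84.8 and 119.8 CPM across the TNFAIP2-labelled libraries. The groups overlapped, the highest library being TNFAIP2-labelled replicate 3 (log2 fold change of -0.020, SE 0.22). SLC2A1 did not follow the library order of the glycolytic enzymes, and control replicate 3 was the lowest control. The proton-coupled lactate carrier SLC16A1 (MCT1) varied little, with 47, 50.6 and 53.4 CPM across the controls (replicates 1 to 3) against 59.6, 52.2 and 55.4 CPM across the TNFAIP2-labelled libraries. SLC16A3 (MCT4), the carrier linked to lactate export, had 11.9, 22.3 and 21.2 CPM in controls and 14.6, 24.5 and 19.4 CPM in TNFAIP2-labelled libraries. Its exons overlap 482 bases of CSNK1D on the other strand, which had 259 ± 45.7 CPM in controls against 236 ± 16.5 CPM in TNFAIP2-labelled libraries, so reads of the shared bases cannot be assigned by position alone.

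In the steps of glycolysis before triose phosphate, 6 of 8 tested genes had a positive log2 fold change (median 0.18) and 0 passed. HK1, the constitutive hexokinase, had 36.2, 56.8 and 81.1 CPM across the controls (replicates 1 to 3) against 88.3, 53.6 and 75.3 CPM across the TNFAIP2-labelled libraries, with the highest control inside the range of the other group. HK2, the hexokinase induced in many tumours, had 102, 68.4 and 92.9 CPM across the controls (replicates 1 to 3) against 104, 77.5 and 84.1 CPM across the TNFAIP2-labelled libraries, and its groups overlapped fully (log2 fold change of 0.016, SE 0.23). GPI, which turns glucose 6-phosphate into fructose 6-phosphate, had 104, 109 and 149 CPM across the controls (replicates 1 to 3) against 153, 121 and 155 CPM across the TNFAIP2-labelled libraries. Its control replicate 3 lay with the TNFAIP2-labelled libraries. PFKP, the platelet-type phosphofructokinase, was the enzyme gene whose groups did not overlap, with 68.7, 57.1 and 71.9 CPM across the controls (replicates 1 to 3) against 83.1, 85.1 and 72.4 CPM across the TNFAIP2-labelled libraries (log2 fold change of 0.28, SE 0.23, adjusted p by edgeR = 0.837). The gap between the highest control and the lowest TNFAIP2-labelled library was smaller than the spread within either group. The liver-type PFKL had 60.4, 37.4 and 72.2 CPM across the controls (replicates 1 to 3) against 71.1, 49.8 and 63.1 CPM across the TNFAIP2-labelled libraries, with overlap (log2 fold change of 0.11, SE 0.27). The muscle-type PFKM had 37.6, 59.4 and 63.4 CPM across the controls (replicates 1 to 3) against 71.4, 60.9 and 61.5 CPM across the TNFAIP2-labelled libraries, also with overlap (log2 fold change of 0.27, SE 0.25). The aldolases ALDOA and ALDOC had few counts under their own names, although ALDOA is the aldolase of most tissues. ALDOA had 54, 30 and 34 counts across the controls (replicates 1 to 3) against 31, 43 and 48 across the TNFAIP2-labelled libraries. ALDOC had 6, 19 and 13 counts in controls and 8, 2 and 11 in the other group (log2 fold change of -1.09, SE 0.80).

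The later glycolytic enzymes included the most abundant members and had much the same library order. All 7 tested had a positive log2 fold change (median 0.31), 0 passed, and control replicate 3 was the highest control for 6 of them. GAPDH, which oxidises glyceraldehyde 3-phosphate (ENSG00000111640, chromosome 12, 6534512 to 6538374, plus strand), had 2389, 3385 and 5183 counts across the controls (replicates 1 to 3) against 6296, 4491 and 5774 across the TNFAIP2-labelled libraries, or 1161 ± 338 CPM in controls against 1497 ± 172 CPM in TNFAIP2-labelled libraries (SD, n = 3; log2 fold change of 0.37, SE 0.21, adjusted p by edgeR = 0.83). Control replicates 1 and 2 were the lowest and control replicate 3 overlapped the other group. ENO1, the main enolase (ENSG00000074800, chromosome 1, 8861000 to 8879190, minus strand), had 639.5, 585 and 923 CPM across the controls (replicates 1 to 3) against 1024, 789 and 900.2 CPM across the TNFAIP2-labelled libraries (log2 fold change of 0.34, SE 0.20). PKM, which encodes pyruvate kinase M, had 638, 596 and 793 CPM across the controls (replicates 1 to 3) against 882, 758 and 860.2 CPM across the TNFAIP2-labelled libraries (log2 fold change of 0.30, SE 0.19). For both, the order of libraries was close to that of GAPDH. TPI1, which interconverts the triose phosphates, had 197, 183 and 294 CPM across the controls (replicates 1 to 3) against 322, 234 and 277 CPM across the TNFAIP2-labelled libraries. PGK1, the first ATP-yielding enzyme, had 79.2, 83.2 and 186 CPM across the controls (replicates 1 to 3) against 171, 117 and 143 CPM across the TNFAIP2-labelled libraries, and its control replicate 3 was the highest of all libraries. PGAM1, the phosphoglycerate mutase, had 151, 112 and 195 CPM across the controls (replicates 1 to 3) against 204, 133 and 154 CPM across the TNFAIP2-labelled libraries, and control replicate 3 was its highest control. ENO2, the neuronal enolase, had 11 to 33 counts per library.

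Per exonic kilobase, the own-name level of GAPDH averaged 446 CPM over the libraries, and its lowest library lay above the highest of ENO1, the next at 154. ENO1 overlapped TPI1 at 93 and TPI1 overlapped PKM at 88, followed by LDHA at 61.7 and PGAM1 at 61.6, which also overlapped. SLC2A1 had 20.7, HK2 14.5 and HK1 10.4. The lowest tested members per kilobase were EGLN3 at 0.858 and KDM3A at 0.432. If reads were counted with the strand setting opposite to the kit's, own-name levels and their order would be those of antisense reads. That was not tested, and the share of a gene's reads they hold was measured only where a feature lies opposite.

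**Figure D3:**
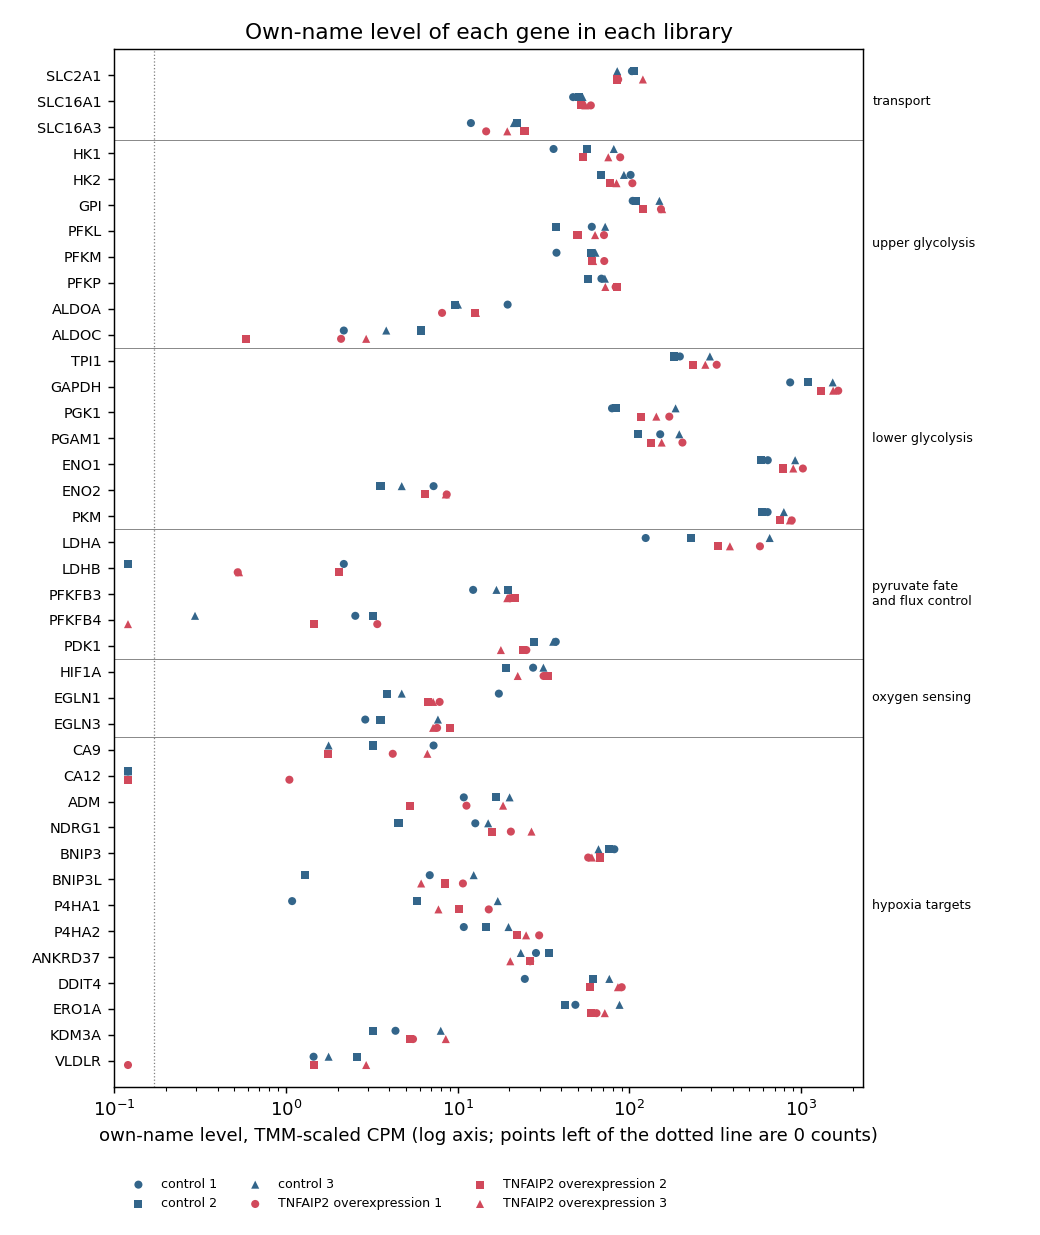
The plot shows the TMM-scaled CPM of every member in every library on a log axis, grouped by role, with 3 control and 3 TNFAIP2-labelled libraries per row. The later glycolytic enzymes and LDHA have control replicate 3 beside the TNFAIP2-labelled libraries, and PDK1, P4HA2, NDRG1 and PFKP are the tested rows with separate groups.

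Among genes that set the fate of pyruvate, LDHA varied most within the controls. LDHA, which makes lactate from pyruvate (ENSG00000134333, chromosome 11, 18394560 to 18408425, plus strand), had 344, 708 and 2225 counts across the controls (replicates 1 to 3) against 2203, 1126 and 1446 across the TNFAIP2-labelled libraries. The controls spanned the whole range of the other group (336 ± 282 CPM in controls against 429.6 ± 129.8 CPM in TNFAIP2-labelled libraries, SD, n = 3; log2 fold change of 0.35, SE 0.64, adjusted p by edgeR = 0.91). LDHB, the heart-type subunit gene, had 6, 0 and 0 counts in controls and 2, 7 and 2 in TNFAIP2-labelled libraries and was too low to test. PDK1, the kinase that inhibits pyruvate dehydrogenase (ENSG00000152256, chromosome 2, 172555373 to 172608669, plus strand), was the tested member lying lower in every TNFAIP2-labelled library. It had 37.2, 27.7 and 36 CPM across the controls (replicates 1 to 3) against 25.1, 23.9 and 17.8 CPM across the TNFAIP2-labelled libraries (log2 fold change of -0.59, SE 0.30, unadjusted p = 0.0608, adjusted p by edgeR = 0.83). With the own-strand covariate its log2 fold change was -0.66 (SE 0.34). The bifunctional regulator PFKFB3, which raises fructose 2,6-bisphosphate, had 12.3, 19.7 and 16.8 CPM across the controls (replicates 1 to 3) against 20.1, 21.6 and 19.4 CPM across the TNFAIP2-labelled libraries (log2 fold change of 0.32, SE 0.34). PFKFB4 had at most 13 counts in a library and was not tested.

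No gene of oxygen sensing passed, and their counts were low. HIF1A, the oxygen-regulated HIF subunit (ENSG00000100644, chromosome 14, 61695513 to 61748259, plus strand), had 27.5, 19 and 31.5 CPM across the controls (replicates 1 to 3) against 31.6, 33.5 and 22.4 CPM across the TNFAIP2-labelled libraries (log2 fold change of 0.16, SE 0.31). EGLN1, the main HIF prolyl hydroxylase, had 48, 12 and 16 counts across the controls (replicates 1 to 3) against 30, 23 and 27 across the TNFAIP2-labelled libraries, and control replicate 1 stood above the other libraries. EGLN3, a hydroxylase that HIF itself induces, had 2.89, 3.55 and 7.67 CPM across the controls (replicates 1 to 3) against 7.58, 9.03 and 7.19 CPM across the TNFAIP2-labelled libraries (log2 fold change of 0.74, SE 0.55, adjusted p by edgeR = 0.83). Its control replicate 3 lay within the other group.

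Among hypoxia-induced genes, 8 of 11 tested had a positive log2 fold change (median 0.29) and 0 passed. NDRG1, a stress and differentiation gene (ENSG00000104419), had 35, 14 and 51 counts across the controls (replicates 1 to 3) against 78, 54 and 101 across the TNFAIP2-labelled libraries. All TNFAIP2-labelled libraries were above all controls, with control replicate 2 lowest (10.7 ± 5.52 CPM in controls against 21 ± 5.6 CPM in TNFAIP2-labelled libraries, SD, n = 3; log2 fold change of 0.97, SE 0.42, unadjusted p = 0.0307, adjusted p by edgeR = 0.83). With the own-strand covariate its log2 fold change was 0.40 (SE 0.47). P4HA2, a collagen prolyl hydroxylase subunit (ENSG00000072682, chromosome 5, 132190147 to 132295315, minus strand), had 30, 45 and 67 counts across the controls (replicates 1 to 3) against 114, 76 and 94 across the TNFAIP2-labelled libraries, again without overlap (log2 fold change of 0.76, SE 0.34, unadjusted p = 0.0353, adjusted p by edgeR = 0.83). With the covariate it was 0.39 (SE 0.37). Its paralogue P4HA1 had 3, 18 and 58 counts across the controls (replicates 1 to 3) against 58, 35 and 29 across the TNFAIP2-labelled libraries, so the controls alone spanned its whole range. DDIT4, an mTORC1 inhibitor induced by hypoxia and other stress (ENSG00000168209, chromosome 10, 72273919 to 72276036, plus strand), had 24.6, 61.6 and 76.4 CPM across the controls (replicates 1 to 3) against 90.2, 58.9 and 85.7 CPM across the TNFAIP2-labelled libraries (log2 fold change of 0.53, SE 0.34). Control replicate 1 was its lowest library. ERO1A, the oxidase for disulfide formation in the endoplasmic reticulum (ENSG00000197930, chromosome 14, 52639915 to 52695900, minus strand), had 48.4, 42.3 and 87.6 CPM across the controls (replicates 1 to 3) against 64.3, 59.7 and 71.9 CPM across the TNFAIP2-labelled libraries, and its highest library was control replicate 3.

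The other hypoxia-induced genes gave mixed directions. BNIP3, a mitophagy receptor, had 226, 237 and 224 counts across the controls (replicates 1 to 3) against 220, 231 and 227 across the TNFAIP2-labelled libraries, nearly level across libraries before scaling (log2 fold change of -0.27, SE 0.23). BNIP3L, its relative, had 19, 4 and 42 counts across the controls (replicates 1 to 3) against 41, 29 and 23 across the TNFAIP2-labelled libraries. ANKRD37 had 79, 106 and 79 counts across the controls (replicates 1 to 3) against 101, 91 and 76 across the TNFAIP2-labelled libraries. Its exons share 909 bases with UFSP2 on the other strand, which had 14, 33 and 47 counts in controls against 33, 39 and 41, so the counts named ANKRD37 cannot be assigned to it alone. The vasodilator peptide gene ADM had 30, 52 and 68 counts across the controls (replicates 1 to 3) against 43, 18 and 69 across the TNFAIP2-labelled libraries (log2 fold change of -0.45, SE 0.44). CA9, the tumour carbonic anhydrase, had 20, 10 and 6 counts across the controls (replicates 1 to 3) against 16, 6 and 25 across the TNFAIP2-labelled libraries, and 643 of its exonic bases lie opposite ARHGEF39, which had 175 ± 55.4 CPM in controls against 158 ± 12.3 CPM in TNFAIP2-labelled libraries. The demethylase gene KDM3A had 10 to 32 counts per library. VLDLR, a lipoprotein receptor gene, had 4, 8 and 6 counts in controls against 0, 5 and 11 and was not tested. CA12, another carbonic anhydrase gene, had 4 counts in TNFAIP2-labelled replicate 1, 0 in each other library and no test.

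Features on the other strand held more counts than several members. Of the members, 16 had a feature sharing at least 50 exonic bases on the other strand, from 56 bases at BNIP3L; the feature at P4HA1 shared 47 bases and lay just outside. For 4 members, GAPDH, ALDOA, ALDOC and ERO1A, at least 90% of the feature lay inside the member's exons. Those features held 88.1 times the counts per exonic kilobase of the gene for GAPDH, 171 times for ALDOA, 155 times for ALDOC and 104 times for ERO1A. The lncRNA opposite GAPDH alone held 1.57 to 1.87% of all counts of a library. The features at ALDOA and ERO1A cover no coding base of those genes.

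No feature opposite a member passed the test. Of 13 tested features, 2 had a positive log2 fold change (median -0.26), a share near the 19.1% of all features that are not protein-coding, though some of the 13 are protein-coding genes. By edgeR 0 passed, and 1 had an unadjusted p under 0.05, as did 4.89% of all features. That 1 was lower, as were 363 of all 11851 features at that threshold, with 119 of these among the 9057 protein-coding ones. DESeq2 and limma-voom also called 0. The lncRNA opposite GAPDH had 56542, 65846 and 51729 counts across the controls (replicates 1 to 3) against 54881, 58157 and 56154 across the TNFAIP2-labelled libraries, or 18978 ± 3252 CPM in controls against 15412 ± 1361 CPM in TNFAIP2-labelled libraries (SD, n = 3; log2 fold change of -0.30, SE 0.18, adjusted p by edgeR = 0.83). Control replicate 3 lay with the TNFAIP2-labelled libraries here too. With the own-strand covariate the log2 fold change was 0.00046 (SE 0.085). That ratio includes this feature and GAPDH themselves, and with the ratio taken over genes outside the list it was 0.00079 (SE 0.089). Both strands of GAPDH summed to 1.91, 1.96 and 1.75% of all counts in controls and 1.75, 1.82 and 1.76% in TNFAIP2-labelled libraries. The feature opposite ALDOA (ENSG00000274904) had 389, 335 and 218 CPM across the controls (replicates 1 to 3) against 207, 259 and 247 CPM across the TNFAIP2-labelled libraries (log2 fold change of -0.40, SE 0.22), and that opposite ALDOC had 50.8 ± 10.5 CPM in controls against 42.2 ± 4.35 CPM in TNFAIP2-labelled libraries.

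Among all features tested, 4.92% lay wholly lower and 5.54% wholly higher in the TNFAIP2-labelled libraries. Of 11851 features tested, 583 lay wholly lower, and only 301 of these were among the 9057 protein-coding ones. Wholly lower groups were thus commoner among features that are not protein-coding, such as lncRNAs. Beside those shares, 1 of the 13 tested features sharing at least 50 bases had separate groups, the one opposite ERO1A. The lncRNA (ENSG00000258757, chromosome 14, 52640839 to 52641566, plus strand) had 1822, 2136 and 1816 counts across the controls (replicates 1 to 3) against 1600, 1561 and 1354 across the TNFAIP2-labelled libraries. Every TNFAIP2-labelled library was below every control, at 628 ± 81.4 CPM in controls against 411 ± 47.6 CPM in TNFAIP2-labelled libraries (SD, n = 3; log2 fold change of -0.61, SE 0.19, unadjusted p = 0.00402, adjusted p by edgeR = 0.83). With the own-strand covariate its log2 fold change was -0.38 (SE 0.14, unadjusted p = 0.0168). ERO1A under its own name had the other sign (0.13), and -0.31 with the covariate. The ratio of own-name to opposite counts was 0.0735, 0.0613 and 0.164 in controls and 0.154, 0.131 and 0.199 in TNFAIP2-labelled libraries. For GAPDH it was 0.0423, 0.0514 and 0.10 against 0.115, 0.0772 and 0.103 (exact two-sided permutation p = 0.2 on the log2 scale). Without control replicate 3 the features opposite GAPDH, ALDOA and ERO1A passed as lower, at log2 fold changes of -0.44, -0.61 and -0.72 (edgeR adjusted p = 0.0399, 0.0236 and 0.00474). Over all features 3.28% passed as lower there. Of the 11851 features tested with all libraries, 402 passed as lower there, and only 111 of these were among the 9057 protein-coding ones. The share was thus larger among features that are not protein-coding, such as these lncRNAs. Apart from the covariate fit, the part of the own-strand ratio in these differences was not tested.

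**Figure D4:**
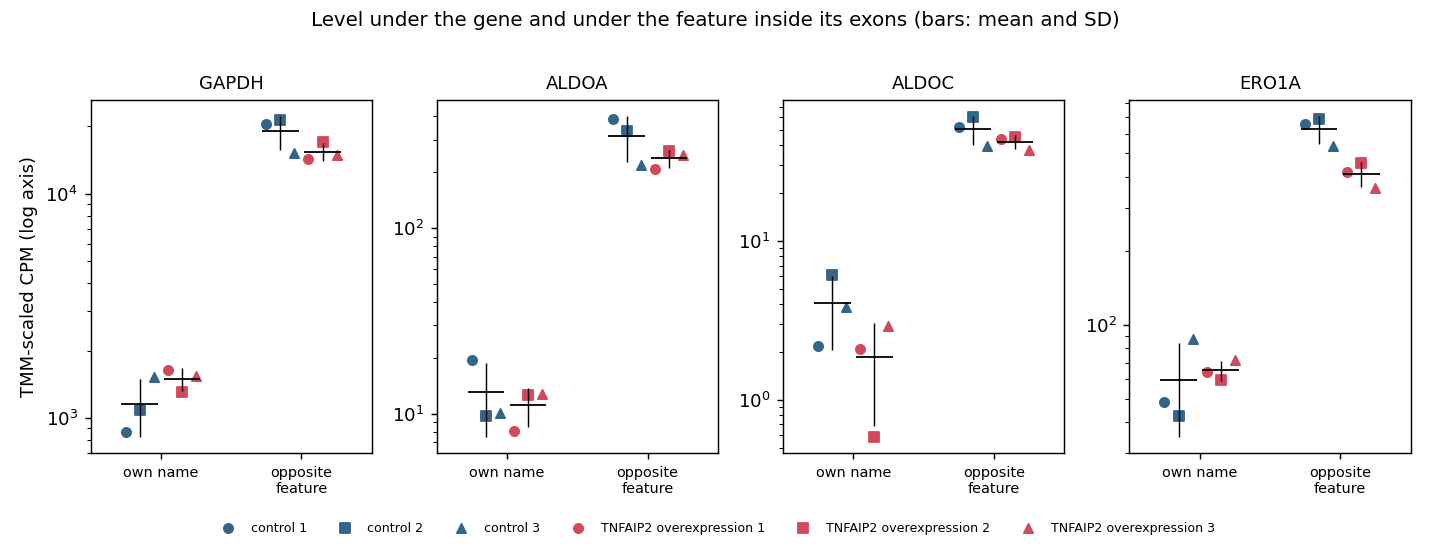
The panels give the TMM-scaled CPM on log axes of GAPDH, ALDOA, ALDOC and ERO1A under their own names and of the feature inside their exons on the other strand, by library, with the group means and SD as bars. In each panel the opposite feature lies far above the own name, and for ERO1A the groups separate at 628 and 411 CPM.

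Other features share only part of their exons with a member, and their reads cannot be assigned to the member alone. HIF1A-AS1 had 777, 794 and 567 counts across the controls (replicates 1 to 3) against 709, 698 and 671 across the TNFAIP2-labelled libraries, several times the counts of HIF1A, over a shared stretch of 117 bases (log2 fold change of -0.31, SE 0.21). The lncRNA opposite PDK1 (ENSG00000225205) had 308 ± 55.5 CPM in controls against 244 ± 32.9 CPM in TNFAIP2-labelled libraries (log2 fold change of -0.34, SE 0.20), and its exons also lie opposite those of ITGA6. With the covariate it was at 0.0046, while PDK1 under its own name was at -0.66. ENO1-AS1 had 64, 66 and 43 counts across the controls (replicates 1 to 3) against 28, 41 and 54 across the TNFAIP2-labelled libraries (log2 fold change of -0.76, SE 0.39). P4HA2-AS1 had 141 ± 25.2 CPM in controls against 126 ± 14.8 CPM in TNFAIP2-labelled libraries (log2 fold change of -0.16, SE 0.21), against the higher own-name value of P4HA2. The feature at P4HA1 had 77.5 ± 3.74 CPM in controls against 56 ± 4.75 CPM in TNFAIP2-labelled libraries (log2 fold change of -0.47, SE 0.23, unadjusted p = 0.0524). The tested features with positive values were SLC16A1-AS1 at 0.23 (SE 0.50) and UFSP2 at 0.054 (SE 0.45). SENP1, opposite PFKM, had 2, 21 and 27 counts in controls against 26, 7 and 21. SLC2A1-AS1, VLDLR-AS1 and the pseudogene SDAD1P1 opposite BNIP3L had at most 9 counts in a library.

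The balance between isozymes, as counted under their own names, is a ratio within a library and needs no scaling between libraries. Computed from own-name counts per exonic kilobase for 11 pairs or trios, it passed in none, with exact two-sided permutation p from 0.4 to 1 and all Benjamini-Hochberg adjusted values at 1; 0.1 is the smallest the design allows. Of HK1 and HK2 together, HK2 made up 74.5, 55.6 and 54.3% in controls and 55, 60.02 and 53.7% in TNFAIP2-labelled libraries. Control replicate 1 stood apart. Of the phosphofructokinase genes, PFKP made up 54.4, 49 and 47% in controls and 49.2, 55.9 and 49.2% in TNFAIP2-labelled libraries. ENO2 stayed between 0.626 and 1.37% of the enolases and LDHB between 0 and 3.5% of the lactate dehydrogenases. Of both carriers, SLC16A3 made up 13, 20.6 and 19% in controls and 12.7, 21.7 and 17.2% in TNFAIP2-labelled libraries. Of BNIP3 and BNIP3L together, BNIP3L made up 9.42, 2.04 and 18.8% in controls and 18.7, 13.4 and 11.1% in TNFAIP2-labelled libraries. P4HA2 ranged from 29.6 to 78.4% of the P4HA genes and EGLN3 from 14.1 to 61.6% of the EGLN genes, with both extremes in controls. The P4HA and EGLN pairs held as few as 33 and 23 counts in a library. ALDOC with ALDOA, PFKFB4 with PFKFB3 and CA12 with CA9 held as few as 39, 41 and 6. The shares of all these pairs are loosely set. No share was adjusted for the own-strand ratio, and partners can follow that ratio differently. Pearson's r of the own-name level with it, on log2 scales, was 0.83 for HK1 and 0.48 for HK2. For BNIP3 it was -0.95 and for BNIP3L 0.70. As elsewhere, own-name counts may be counts of reads from the other strand.

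Other genes of these pathways did not pass either. Of 46 further genes of glycolysis, glycogen and the pentose phosphate route, 30 were tested, 0 passed and 21 had a positive log2 fold change (median 0.15). Of 50 further genes of hypoxia sensing and response, 38 were tested, 0 passed and 29 were positive (median 0.24). An unadjusted p under 0.05 was found for 2 and 1 of them, all higher, beside 1.83% of all features and 205 of the 9057 protein-coding ones. Among protein-coding features 62% were positive. PGLS, a pentose phosphate enzyme gene, had 6.52 ± 1.57 CPM in controls against 13.5 ± 0.806 CPM in TNFAIP2-labelled libraries (log2 fold change of 1.05, SE 0.43, adjusted p by edgeR = 0.83). PGLS-DT shares 261 exonic bases with PGLS on the other strand and averaged 240 CPM in controls against 178. PGM2, a phosphoglucomutase gene, had 13.1 ± 5.0 CPM in controls against 22.3 ± 2.55 CPM in TNFAIP2-labelled libraries (log2 fold change of 0.76, SE 0.36). CITED2, whose product competes with HIF for its coactivator, had 4.88 ± 1.18 CPM in controls against 11.3 ± 0.971 CPM in TNFAIP2-labelled libraries (log2 fold change of 1.21, SE 0.48), and 1.02 with the own-strand covariate. The highest counts in these lists were those of ENO3, the muscle enolase gene, at 4328 ± 977 CPM in controls against 3649 ± 543 CPM in TNFAIP2-labelled libraries, which exceed those of ENO1. The exons of ENO3 share 111 bases with PFN1, the profilin gene, on the other strand. HIF1AN, the asparaginyl hydroxylase that restrains HIF, was next at 604 ± 80.04 CPM in controls against 540.2 ± 50.1 CPM in TNFAIP2-labelled libraries, and it shares 325 exonic bases with NDUFB8. The counts named ENO3 and HIF1AN therefore cannot be assigned to those genes alone. P4HB, a disulfide isomerase and subunit of the collagen prolyl hydroxylases, had 251 ± 13.2 CPM in controls against 302 ± 24.7 CPM in TNFAIP2-labelled libraries (log2 fold change of 0.27, SE 0.19), without overlap between groups. The feature ENSG00000262831 shares 529 exonic bases with it on the other strand and averaged 3735 CPM in controls against 2801. BSG, the chaperone of the lactate carriers, had 198 ± 30.3 CPM in controls against 205 ± 6.37 CPM in TNFAIP2-labelled libraries (log2 fold change of 0.047, SE 0.20). TKT of the pentose phosphate route had 135 ± 13 CPM in controls against 159.8 ± 16.9 CPM in TNFAIP2-labelled libraries (log2 fold change of 0.24, SE 0.20). CAV1, SDC4 and IGFBP3 were also among the most abundant, with fitted values of 0.23, 0.30 and 0.17 in log2 fold change.

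Processed pseudogenes named after members took few reads. The table has 20 such rows, which together held 28, 21 and 38 counts in controls and 31, 62 and 30 in TNFAIP2-labelled libraries. BNIP3P11 held the most, 110 over all libraries. Reads that match a gene and its copies equally well may have been left out or split in counting, and that setting is not among the sources used here.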

How the data were processed

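RNA-seq counts of 6 libraries were read, grouped by title and matched to columns through the column names in the labels. The authors deposited whole-number read counts per gene, not normalized. HISAT2 2.2.0 and HTSeq 0.13.5 on GRCh38, after Trim Galore 0.6.4, are named in the submitters' processing notes, and per the labels' protocols the kit was a stranded mRNA kit. The annotation release and HTSeq's strand setting were not given in the sources used here.

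Every feature of the table was fitted with edgeR 4.0.16 (R 4.3.3; filterByExpr, TMM, robust glmQLFit and glmQLFTest, Benjamini-Hochberg, threshold 0.05), and SE was derived from F. DESeq2 1.42.0 and limma-voom (limma 3.58.1) were alternatives. The fit was also run on simulated counts, drawn independently around a mean per gene scaled to each library's total. That simulation lacks the differences between libraries of a group seen here, so it cannot show how the fit handles them. Exons of GENCODE 29 gave lengths and features on the other strand (pyranges 0.1.4); features for the own-strand ratio had at least 60 counts. Exact tests used SciPy 1.17.1. Within a group, chi-square per degree of freedom between libraries (genes with at least 20 counts) was 5.07 to 19.4. It was highest between control replicates 1 and 3. All libraries were kept. All members were named; per-library values went to abundant members, those at unadjusted p under 0.05 or without overlap, and those with an opposite feature. Of other pathway genes, up to 8 of highest mean CPM and those at unadjusted p under 0.05 were named. Members and lists were chosen with earlier results of these data known.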

Additional observations from a re-analysis of the deposited data

How the results depend on the processing

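No member passed under DESeq2, limma-voom, other scalings or filters, the replicate block or the own-strand covariate, and leaving out each library gave 0 to 6 members, 0 to 922 of all features, 0 to 3 opposite features and 0 to 5 other pathway genes past the threshold, with every upper value without control replicate 3. Over all features DESeq2 called 3, limma-voom 1 and edgeR with no filter 3. Members at an unadjusted p under 0.05 numbered 0 to 13 without each library, 0 with the own-strand covariate and 1 with the replicate block. The members' median was 0.0035 with the covariate and 0.15 to 0.41 without each library. With library totals over the features kept, in place of TMM, it was 0.40, where that of all features was 0.18. Whether libraries with the same replicate number belong together is not in the labels. Their deviations from the group means correlated at -0.267, 0.164 and -0.049, and not every library correlated best with its own number. With 3 libraries per group, such correlations cannot settle whether the libraries were paired.

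Of 48 members and features, 26 changed sign with the own-strand covariate, and the cause was not tested: -0.22 for HK1, -0.19 for HK2, -0.092 for GPI, -0.32 for PFKL, 0.11 for ALDOA, -0.11 for TPI1, -0.31 for PGK1, -0.34 for PGAM1, -0.033 for ENO1, -0.46 for LDHA, 0.079 for SLC2A1, 0.18 for EGLN1, -0.35 for BNIP3L, -0.32 for P4HA1, 0.030 for ANKRD37, -0.31 for ERO1A, -0.24 for KDM3A, 0.046 for the feature opposite ALDOA, 0.043 for the feature opposite ALDOC, 0.00046 for the feature opposite GAPDH, -0.13 for the feature opposite SLC16A1, 0.15 for the feature opposite SLC16A3, 0.0046 for the feature opposite PDK1, 0.086 for the feature opposite HIF1A, 0.31 for the feature opposite CA9 and -0.16 for the feature opposite ANKRD37. With the ratio over genes outside the list as covariate, an alternative added after seeing the data, the same 26 changed sign, 0 members passed, 0 had an unadjusted p under 0.05 and the median was 0.010. The values were, in the same order, -0.22, -0.21, -0.093, -0.34, 0.092, -0.11, -0.31, -0.36, -0.035, -0.45, 0.072, 0.092, -0.36, -0.30, 0.033, -0.31, -0.24, 0.036, 0.044, 0.00079, -0.14, 0.15, 0.0053, 0.076, 0.29 and -0.14. With library totals, values turned to 0.16 for SLC2A1, 0.045 for the feature opposite PFKM, 0.045 for the feature opposite SLC16A3, 0.039 for the feature opposite CA9 and 0.010 for the feature opposite P4HA2. Limma-voom gave 0.14 for EGLN1 and 0.16 for the feature opposite PFKM, the replicate block 0.040 for EGLN1 and 0.027 for the feature opposite PFKM, DESeq2 -0.0053 for HK2 and RLE scaling -0.0055 for HK2. Leaving out each library turned 16 signs, with ranges of -0.12 to 0.14 for HK2, -0.087 to 0.32 for PFKL, -0.39 to 0.17 for ALDOA, -0.089 to 0.31 for PGAM1, -0.044 to 1.28 for LDHA, -0.21 to 0.10 for SLC2A1, -0.16 to 0.25 for SLC16A3, -0.56 to 0.75 for EGLN1, -0.44 to 0.75 for CA9, -0.18 to 1.05 for BNIP3L, -0.062 to 1.64 for P4HA1, -0.036 to 0.52 for ERO1A, -0.61 to 0.34 for the feature opposite PFKM, -0.38 to 0.077 for the feature opposite CA9, -0.26 to 0.018 for the feature opposite P4HA2 and -0.25 to 0.38 for the feature opposite ANKRD37. Differences in isozyme shares between groups ranged, in percentage points, over -8.78 to 1.29 for HK2, -0.924 to 3.43 for PFKP, -0.00142 to 0.373 for ENO2, -1.17 to 0.584 for LDHB, -2.64 to 1.88 for SLC16A3, -2.69 to 21.1 for EGLN3 and -16.4 to 8.04 for P4HA2. Depth limits LDHB, PFKFB4, CA12 and VLDLR, which were not tested.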
